A study of Mus musculus with 8 samples.

Results

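The 6 genes described here carry out the synthesis, transport and breakdown of GABA (gamma-aminobutyric acid): Gad1, Gad2, Slc32a1, Slc6a13, Abat and Aldh5a1. They were taken as listed rows of the deposited expression table, 6 of 46955 genes, and 3 of them (Gad1, Abat and Aldh5a1) passed the filter of at least 1 RPKM in at least 2 of 8 libraries. RPKM is a read count scaled to the length of the gene and to the size of the library. The list was chosen by measured values, since Gad1 was among the genes with the largest falls of RPKM in transdifferentiated against beta cells. Differences between these 2 groups are therefore given for all 6 genes as a description, with no test, and Gad1 is given with no test in any comparison.

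RNA was sequenced from islet cells of adult mice sorted by flow cytometry, in 3 beta, 3 alpha and 2 transdifferentiated libraries. The design text describes animals with 3 alleles: Ins1-H2b-mCherry, a red nuclear reporter under the Ins1 promoter; Gcg-cre, a Cre recombinase for alpha cells; and a floxed YFP allele that Cre switches on for good. Beta cells carried the red reporter, alpha cells the yellow label, and the cells called transdifferentiated carried both, so that they are cells of alpha descent with an active insulin reporter. No treatment is named for any group. Each library came from a pool of mice of 1 sex, which made 4 male and 4 female libraries (beta 2 female and 1 male, alpha 1 and 2, transdifferentiated 1 and 1), and the islets spent a night in culture before the sort. The alpha and beta libraries had been deposited before, with another series, so that for the transdifferentiated libraries cell group and series of deposit cannot be told apart. The design text also mentions pools of females with 2 alleles without saying which libraries these are. The Cre label marks any cell that has used the glucagon promoter, and the pools stand for several animals each, so that spread between libraries is not spread between single mice.

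GABA is made from glutamate in a single step by glutamate decarboxylase, of which mammals have a pair of forms, GAD67 from Gad1 and GAD65 from Gad2. In neurons the transporter VGAT, from Slc32a1, loads GABA into vesicles, and carriers of the Slc6 family, among them GAT2 from Slc6a13, take it back up. GABA transaminase (Abat) and succinic semialdehyde dehydrogenase (Aldh5a1) then pass its carbon to succinate in mitochondria, a side route around part of the citrate cycle known as the GABA shunt. Pancreatic beta cells are one of the main places outside the brain where GABA is made and released, and mouse beta cells are known for the Gad1 form.

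Depth differed between the groups. Reads recovered from the steps of the RPKM values came to 1244227 and 2167332 for the transdifferentiated pools and to 12911871 to 21395280 in the others. The sorted populations carried their defining genes. The summed RPKM of 5 beta cell markers (Ins1, Ins2, Mafa, Ucn3 and Slc2a2) was 148090 to 201440 in beta, 108250 to 117490 in transdifferentiated and 1036 to 1366 in alpha libraries. Gcg, the glucagon gene and chief alpha cell marker, was at 478 to 1773 RPKM in beta, 19104 to 19374 in transdifferentiated and 170140 to 196490 in alpha libraries. Markers of other endocrine cells were also above the beta level in the transdifferentiated libraries, with ranges that overlapped those of alpha libraries. Summed RPKM of 4 delta cell genes was 312 to 891 in beta, 2967 to 3096 in transdifferentiated and 1370.5 to 3197 in alpha libraries. For Ppy and Ghrl, the PP and epsilon cell hormones, the sums were 344 to 822, 4420 to 6156 and 4128 to 6218. Nearly all of this was Ppy, since Ghrl had means of 0.243, 0.586 and 1.75 RPKM in the same order of groups. In sorted pools, a lower share of cells that make an RNA and less of that RNA per cell cannot be told apart.

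The decarboxylase pair is shown first by its promoters, because Gad1 carried nearly all decarboxylase RNA in beta cells and Gad2 almost none. Gad1 (ENSMUSG00000070880) lies on chromosome 2, 70553072 to 70602014, on the plus strand, with 7639 bases of exon in 21 merged exons. Gad2 (ENSMUSG00000026787) lies on the same chromosome and strand, 22622205 to 22693874, with 5876 bases in 16 merged exons. The windows below run from 250 bases before to 50 bases after the RefSeq start on build GRCm38.p6, plus strand, at chr2:70561879-70562178 for Gad1 and chr2:22622077-22622376 for Gad2. Capitals mark a GC box (CCGCCC) in Gad1 and, in Gad2, a match to the core of RE1, the element bound by the neuronal gene repressor REST (AGCACC, any 2 bases, GGACAG, any base, GC).
Gad1: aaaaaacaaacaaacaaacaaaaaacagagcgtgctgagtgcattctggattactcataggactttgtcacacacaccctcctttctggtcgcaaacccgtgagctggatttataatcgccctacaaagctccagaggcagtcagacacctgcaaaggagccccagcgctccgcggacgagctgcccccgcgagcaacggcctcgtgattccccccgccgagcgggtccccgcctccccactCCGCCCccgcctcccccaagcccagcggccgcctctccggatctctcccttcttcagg
Gad2: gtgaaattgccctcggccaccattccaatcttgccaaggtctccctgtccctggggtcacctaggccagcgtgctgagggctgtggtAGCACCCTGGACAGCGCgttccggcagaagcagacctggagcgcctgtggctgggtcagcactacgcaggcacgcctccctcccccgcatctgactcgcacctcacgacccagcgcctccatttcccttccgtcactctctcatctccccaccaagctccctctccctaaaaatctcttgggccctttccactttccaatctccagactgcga
Motifs were searched on both strands, and the RE1 core was chosen after the Gad2 sequence had been seen. The RE1 core was found in 6 of 32851 RefSeq promoter windows of this length (0.0183%), the Gad2 window being 1 of them, and not in the windows of Gad1, Slc32a1, Slc6a13 or Aldh5a1. The GC box was in 35.7% of windows, with 1 match in Gad1 and none in Gad2. The letters of a TATA box (TATAAA) were in 13.6% of windows on either strand and, of the 5 genes with a window, in Gad1 alone. In Gad1 they lay on the minus strand, against the direction of the gene, and its plus strand had no match. A MAF site (TGCTGAC) was in 4.67% of windows and in that of Gad2. The Gad1 window held 21 CpG dinucleotides and the Gad2 window 14, against a median of 7 over all windows. These matches describe the letters of the windows and not occupied sites.

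Gad1 was a beta cell RNA that the transdifferentiated cells had at a low level. It was at 12.5, 11.7 and 13.3 RPKM in beta replicates 1 to 3, at 1.79 and 1.87 RPKM in transdifferentiated replicates 1 and 2, and at 0.233, 0.341 and 0.214 RPKM in alpha replicates 1 to 3. The 3 groups did not overlap: the transdifferentiated libraries lay close together, far under every beta library and above every alpha library. The means were 12.5 ± 0.814 RPKM in beta cells (SD, n = 3), 1.83 ± 0.0593 RPKM in transdifferentiated cells (SD, n = 2) and 0.263 ± 0.0688 RPKM in alpha cells (SD, n = 3). Transdifferentiated cells thus held 14.6% of the beta mean, and alpha cells 2.1%. These levels are the reason for which the gene was chosen.

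The low values rested on few reads. Gad1 had 17 and 31 reads in the transdifferentiated libraries, with exact 95% Poisson intervals of 1.04 to 2.86 and 1.27 to 2.66 RPKM, which cover counting error alone. In alpha libraries it had 23, 35 and 23 reads, with intervals between 0.135 and 0.475 RPKM over the 3 libraries. Beta libraries had 1460 to 1913 reads, and the lowest bound among them was 11.2 RPKM. The counting intervals of the 3 groups therefore also stayed apart. On log2(RPKM + 0.5), a scale that compresses differences at low levels, the fitted difference was -2.49 (SE 0.15) between transdifferentiated and beta cells, -4.12 (SE 0.14) between alpha and beta cells and 1.63 (SE 0.15) between transdifferentiated and alpha cells. With a pseudocount of 0.1 in place of 0.5 the difference between transdifferentiated and alpha cells was 2.45, and with 1 it was 1.18.

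**Figure D1:**
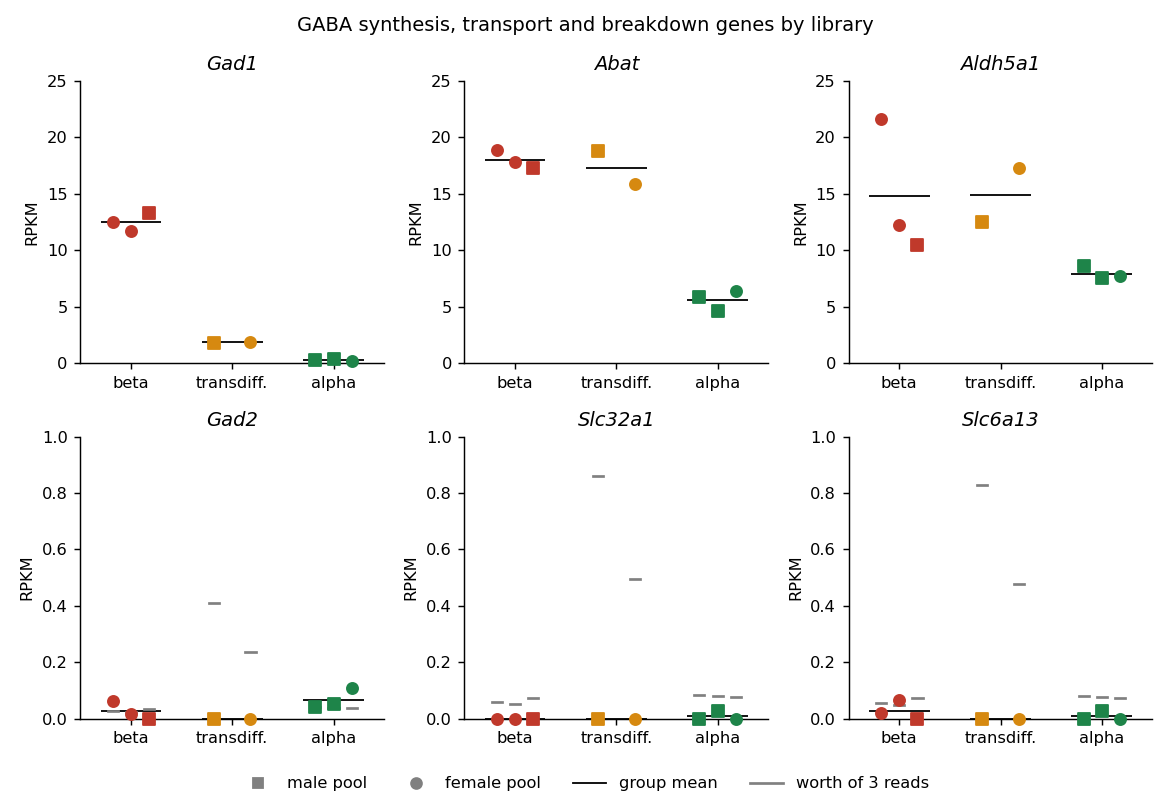
RPKM of the 6 genes in each library by cell group (red beta, orange transdifferentiated, green alpha; squares male and circles female pools; black lines group means). Upper panels share an axis to 25 RPKM and lower panels an axis to 1 RPKM, where grey ticks mark what 3 reads are worth in that library; Gad1 separates the 3 groups, Abat and Aldh5a1 set alpha cells apart, and the lower 3 genes stay under 0.11 RPKM.

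Gad2 was near the detection limit in every group. Beta replicates 1 to 3 held 7, 2 and 0 reads (0.0638, 0.0159 and 0 RPKM), and alpha replicates 1 to 3 held 3, 4 and 9 reads (0.0395, 0.0507 and 0.109 RPKM). The transdifferentiated libraries held 0 reads, which allows up to 0.41 and 0.236 RPKM at the worth of 3 reads. The ranges of beta and alpha cells overlapped, and the limit for transdifferentiated cells lay above all values of the other groups, so that no difference was detectable at this depth. Of the summed RPKM of Gad1 and Gad2, Gad1 made up 99.5%, 99.9% and 100% in beta replicates 1 to 3, and 85.5%, 87.1% and 66.3% in alpha replicates 1 to 3. In both transdifferentiated libraries it was 100% on 17 and 31 reads.

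**Figure D2:**
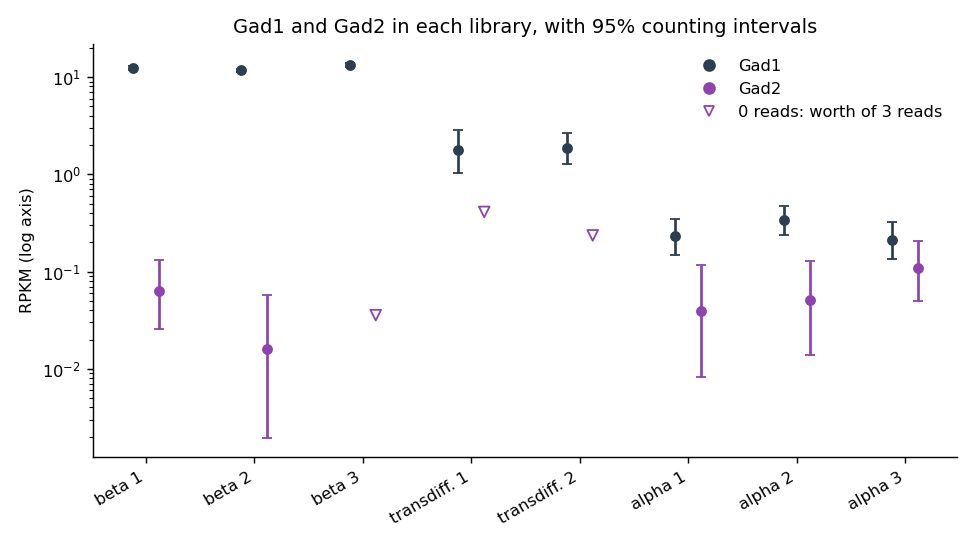
Gad1 (dark) and Gad2 (purple) in RPKM on a log axis for each library, with exact 95% Poisson intervals; open triangles mark what 3 reads are worth where no Gad2 read was found. Gad1 intervals of the 3 groups do not touch, and Gad2 lies under 0.11 RPKM wherever it was detected.

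The vesicular and plasma membrane transporters were close to absent. Slc32a1, the vesicular carrier (ENSMUSG00000037771, chromosome 2, 158610767 to 158615748, plus strand), had 1 read in all 8 libraries together, in alpha replicate 2 (0.0266 RPKM). Its 0 allows up to 0.0501 to 0.0748 RPKM in the beta libraries and up to 0.862 and 0.495 RPKM in the transdifferentiated ones. Slc6a13 (ENSMUSG00000030108, chromosome 6, 121300227 to 121337733, plus strand) had 1, 4 and 0 reads in beta replicates 1 to 3, none in transdifferentiated cells and 1 read in alpha replicate 2. The highest of these values was 0.0644 RPKM, in beta replicate 2. Neither gene passed the filter, so neither was tested.

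Abat, the first enzyme of GABA breakdown, lay near the beta level in transdifferentiated libraries. The gene (ENSMUSG00000057880) lies on chromosome 16, 8513429 to 8621568, on the plus strand. It was at 18.9, 17.8 and 17.3 RPKM in beta replicates 1 to 3, at 18.8 and 15.8 RPKM in transdifferentiated replicates 1 and 2, and at 5.85, 4.63 and 6.35 RPKM in alpha replicates 1 to 3. The transdifferentiated values lay on either side of the beta mean of 18 ± 0.801 RPKM (SD, n = 3), and all alpha values lay far under both groups. The transdifferentiated mean of 17.3 ± 2.07 RPKM (SD, n = 2) was 96.2% of the beta mean, with a fitted log2 difference of -0.05 (SE 0.15), which ran from -0.23 to 0.18 over the alternatives. These values rested on 181 and 266 reads in the transdifferentiated libraries.

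Abat was tested only in contrasts other than the one by which Gad1 was chosen. The list was still chosen with earlier results of these data known. Both contrasts also use libraries whose Gad1 values served in the choice. Alpha cells were lower than beta cells, by a log2 difference of -1.59 (SE 0.14, adjusted p = 0.000153, limma with Benjamini-Hochberg adjustment over all genes tested). Transdifferentiated cells were higher than alpha cells, by 1.54 (SE 0.15, adjusted p = 0.000502). Both calls held in 18 of 18 alternative settings, with adjusted p up to 0.00281 and 0.0066. The alpha libraries serve in both contrasts. Abat was the 1 gene called among the 2 tested of the 5 genes other than Gad1, in either contrast. Over all genes tested, 43.6% were called between alpha and beta cells (26.7% lower in alpha) and 29.9% between transdifferentiated and alpha cells (23.2% higher in transdifferentiated), so that a count of 1 in 2 tells little about the list.

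Aldh5a1, the second enzyme of breakdown, followed a similar order with more spread. The gene (ENSMUSG00000035936) lies on chromosome 13, 24907579 to 24937661, on the minus strand. It was at 21.6, 12.2 and 10.4 RPKM in beta replicates 1 to 3, at 12.5 and 17.3 RPKM in transdifferentiated replicates 1 and 2, and at 8.57, 7.52 and 7.68 RPKM in alpha replicates 1 to 3. Both transdifferentiated values fell within the beta range, and every alpha library was under every other library. Beta replicate 1 was the highest library, with a counting interval of 20.7 to 22.5 RPKM, against 11.6 to 12.9 RPKM in beta replicate 2, which shares its title number.

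The difference of Aldh5a1 between alpha and beta cells did not pass the test (log2 difference -0.68, SE 0.24, adjusted p = 0.0525, limma). The same held between transdifferentiated and alpha cells (0.80, SE 0.26, adjusted p = 0.0528, limma). The first was called in 5 of 18 alternatives (adjusted p from 0.00975 to 0.33) and the second in 4 of 18 (0.0108 to 0.212). Without beta replicate 2 the first passed (adjusted p = 0.0372), and without beta replicate 1, which is not part of the second contrast, the second passed (adjusted p = 0.0108). Without alpha replicate 3 the differences were -0.41 and 0.56. Between transdifferentiated and beta cells the fitted log2 difference was 0.12 (SE 0.26), with either sign over the alternatives (-0.24 to 0.37). The library kit does not mark strand, and 2 genes on the opposite strand share 796 and 203 exon bases with Aldh5a1. They were at 0.218 to 1.74 and 0.673 to 2.09 RPKM, and their reads cannot be told apart from those of Aldh5a1 where the exons overlap.

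RPKM is scaled to the length of all exons of a gene together (7639 bases for Gad1, 7748 for Abat and 5647 for Aldh5a1). Which transcripts the cells used was not examined, so levels of the 3 detected genes can be set side by side only roughly. In beta cells Abat was above Gad1 in each library, and Aldh5a1 ranged across both. In transdifferentiated cells Abat and Aldh5a1 were both far above Gad1, and did not differ beyond their spread. In alpha cells the order was Aldh5a1, Abat, Gad1 in every library. The ratio of Gad1 to Abat within a library, which does not depend on scaling between libraries, was 0.661, 0.658 and 0.77 in beta, 0.0953 and 0.118 in transdifferentiated and 0.0399, 0.0737 and 0.0336 in alpha libraries. By this ratio the transdifferentiated values lay above the alpha range and below the beta range. They rested on 17 and 31 Gad1 reads, and the nearest alpha value, in replicate 2, on 35. Counting error was not carried into the ratio, so the gap to alpha libraries may lie within it. Gad1 was also chosen for its level in transdifferentiated cells. The ratio of Abat to Aldh5a1 was 0.873, 1.45 and 1.66 in beta, 1.5 and 0.914 in transdifferentiated and 0.682, 0.616 and 0.828 in alpha libraries, so that the transdifferentiated values lay within the beta range.

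**Figure D3:**
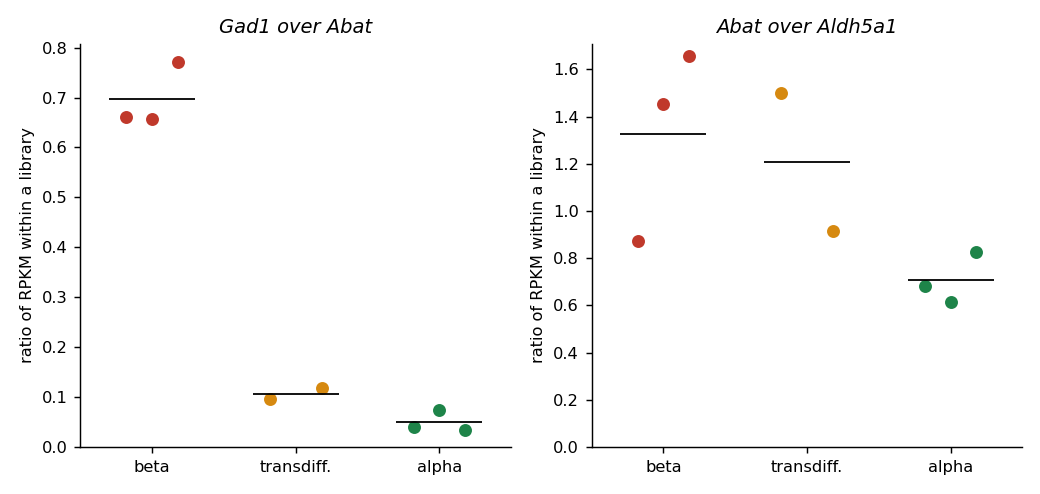
Ratio of RPKM within each library (points; black lines are group means) for Gad1 over Abat on the left and Abat over Aldh5a1 on the right. The first ratio is 0.658 to 0.77 in beta libraries and at most 0.118 in all others; the second is lowest in alpha libraries.

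How far each gene had moved from the alpha to the beta level was also expressed as a share, with the alpha mean as 0% and the beta mean as 100% on linear RPKM. Gad1 stood at 12.5% and 13.2% in the transdifferentiated libraries. Abat stood at 106% and 82.7%, and Aldh5a1 at 67.2% and 137%. Gad1 had a lower share than Abat and Aldh5a1 in both libraries, which its choice by a low level in transdifferentiated cells made likely. These shares leave out the error of the alpha and beta means. There were 588 genes called lower in alpha than in beta cells by a log2 difference of at least 1 and with at least 10 RPKM in beta cells, and their median share was 65.3% (10th and 90th percentiles 37.6% and 108%). Of them, 107 had a share above that of Abat. The share of Gad1 is a description, since the gene was picked for its low level in transdifferentiated cells.

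**Figure D4:**
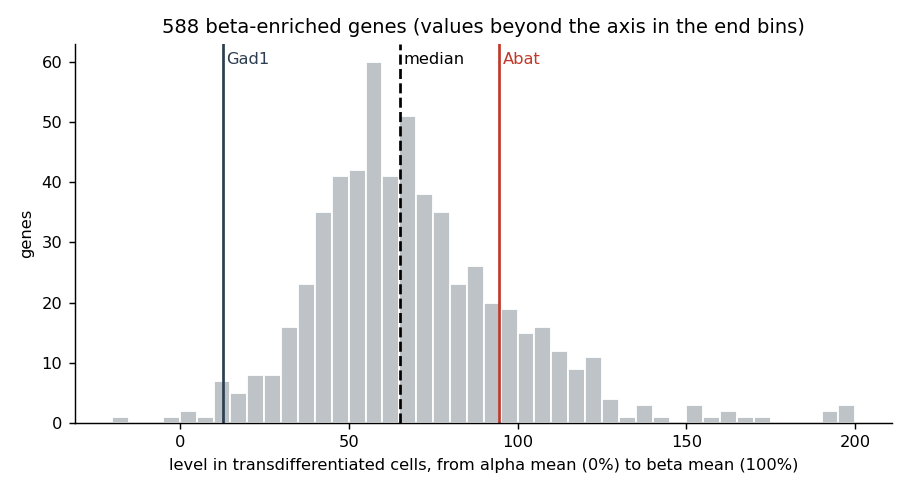
Histogram of the share of the alpha to beta range reached in transdifferentiated cells (mean of 2 libraries, x axis in percent) for 588 beta-enriched genes (y axis, number of genes). Gad1 stands at 12.8% and Abat at 94.5%, on opposite sides of the median of 65.3%.

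Genes with the most similar profile were those with the smallest root mean square difference of log2(RPKM + 0.5) from the gene in question after each gene's mean was subtracted, over 8 libraries and 10458 candidates. For Gad1 they were Emilin1 (0.20), Angptl7 (0.26), H2-Aa (0.37), Cntfr (0.46) and P2ry1 (0.50). Emilin1 encodes an extracellular matrix glycoprotein, and had means of 20.8, 3.15 and 0.509 RPKM in beta, transdifferentiated and alpha cells. H2-Aa encodes an antigen-presenting protein of immune cells. For Abat they were Pcsk6, a proprotein convertase gene (0.09), Dmpk (0.10), Sec16b (0.11), Tssc4 (0.14) and Pard3 (0.14). Pcsk6 was at 12.8 RPKM in both beta and transdifferentiated cells and at 3.77 RPKM in alpha cells. Gad2 was too low for such a comparison.

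Immune cell markers stood in the same order as Gad1. The summed RPKM of 8 of them (Cd74, H2-Aa, H2-Eb1, Ctss, Ptprc, Lyz2, C1qa and Adgre1) was 87.0 to 103 in beta, 22.7 to 37.8 in transdifferentiated and 14.5 to 20.6 in alpha libraries. Of 6 tested, 6 fell in alpha and 5 in transdifferentiated cells, each against beta cells (limma). Of all genes tested, 26.7% and 2.9% were called lower in these contrasts. The exception in transdifferentiated cells was C1qa, with means of 23.5, 16.8 and 14.2 RPKM in beta, transdifferentiated and alpha cells. C1qa made up most of each alpha sum, so the sums fell less than the other markers. Cd74, for one, had means of 35.4, 7.29 and 1.91 RPKM in the same order. Ptprc and Adgre1 were at 0 in both transdifferentiated libraries, against means of 0.113 and 0.531 RPKM in beta cells. At a length of 2 kb, 1 read is worth 0.402 and 0.231 RPKM in these 2 libraries, so a 0 there tells little. The part of such cells in the level of Gad1 was not tested. Markers of glia, which can hold GABA genes, summed to 1.92 to 2.39 RPKM in beta, 2.42 to 4.17 in transdifferentiated and 3.82 to 4.23 in alpha libraries, so they were not highest where Gad1 was. Sox10 and Gfap were at 0 in both transdifferentiated and alpha cells, but in beta cells too they were only at 0.0209 and 0.00424 RPKM. Such levels could not be seen at the depth of the transdifferentiated libraries. Of 3 tested neuron markers 1, Tubb3, was lower than in beta cells both in alpha and in transdifferentiated cells (log2 difference -2.59 and -2.21, limma). Snap25 and Elavl4 were not called in either contrast, at -0.013 and -0.32 in alpha and 0.39 and 0.68 in transdifferentiated cells. The 5 neuron markers listed summed to 56.6 to 76.4, 53.6 to 60.9 and 32.4 to 47.3 RPKM in beta, transdifferentiated and alpha libraries. Nearly all of this was Snap25, Tubb3 and Elavl4, with Snap25 alone at means of 31.7, 40.6 and 30.0 RPKM. Elavl3 (0.0133, 0.138 and 0.486 RPKM) and Prph (0.0430, 0 and 0.0393 RPKM) did not pass the filter. The sums are therefore no measure of neurons in the pools.

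Male and female pools did not differ in Abat (log2 difference -0.06, SE 0.12, adjusted p = 0.927) or Aldh5a1 (-0.33, SE 0.21, adjusted p = 0.843) by limma's sex term. Of the 2 genes 0 were called, 0 reached an unadjusted p of 0.05, voom on recovered reads also called 0, and of all genes 0.0456% were called, 0.038% higher and 0.00759% lower in males. An interaction of sex with the alpha against beta difference was tested as well, with adjusted p = 0.999 for both genes. A p of this size does not show that the sexes were alike.

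Around these 6 genes, 87 other genes of GABA and glutamate handling were read from lists, and 48 of the 86 in the table passed the filter. Of the 48, 26 were lower and 9 higher in alpha than in beta cells, where 26.7% and 16.9% of all genes were called in these directions (median log2 difference -0.48 against -0.05 over all genes). Against alpha cells, 21 were higher and 5 lower in transdifferentiated cells (23.2% and 6.67% of all genes, median 0.35 against 0.17). Against beta cells, 4 were higher and 2 lower in transdifferentiated cells (9.1% and 2.9% of all genes, 12% either way, median -0.10 against 0.09). Median-ratio scaling moved the median over all genes from 0.17 to -0.05 in the contrast with alpha cells and from 0.09 to -0.07 in that with beta cells. It gave 9 higher and 7 lower against alpha cells and 3 higher and 8 lower against beta cells, while quantile normalization gave 11 higher and 17 lower in alpha than in beta cells, and 11 higher and 8 lower against alpha cells. Without alpha replicate 3 the counts were 22 between alpha and beta cells and 13 between transdifferentiated and alpha cells, and without transdifferentiated replicate 1 the latter was 16. Calls over all genes fell in the same settings, from 5743 to 3117 in the first contrast and from 3932 to 2447 and 2935 in the second. The count of 6 against beta cells fell to 1, 3 and 1 without transdifferentiated replicate 1, beta replicate 1 and beta replicate 3, where calls over all genes fell from 1580 to 727, 508 and 235, so that the fall was not limited to these lists.

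**Figure D5:**
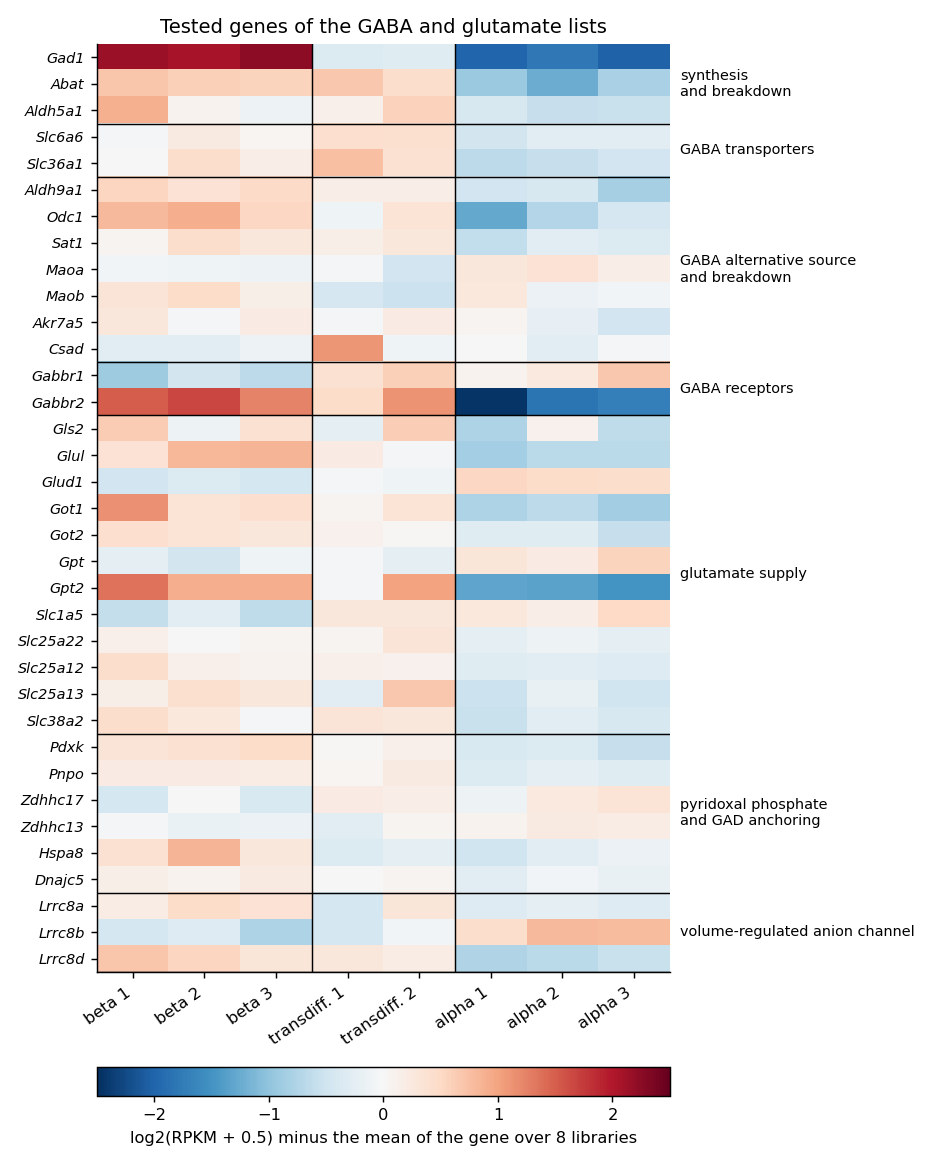
Tested genes of the GABA and glutamate lists (rows; citrate cycle genes and genes not reported here are not drawn) in the 8 libraries (columns), as log2(RPKM + 0.5) minus the gene's mean, red above and blue below. Gad1 and Gabbr2 are reddest in beta libraries, and transdifferentiated libraries have Abat at the beta level and Gad1 under it.

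Carriers that move GABA beside their main substrates were the GABA transporters found. The carriers Slc6a11 and Slc6a12 and the proton-coupled Slc36a2 did not pass the filter. Slc6a6, the taurine transporter gene, was at 34.8 ± 3.42 RPKM in beta (SD, n = 3), 43.7 ± 0.482 in transdifferentiated (SD, n = 2) and 25.7 ± 1.77 in alpha cells (SD, n = 3). Slc36a1, a proton-coupled amino acid transporter gene, was at 13.9 ± 2.25, 17.9 ± 3.33 and 7.86 ± 0.48 RPKM. Alpha cells had less of both genes than beta cells (log2 difference -0.41 and -0.78, adjusted p = 0.0156 and 0.00651, limma), the first losing its call in 3 of 18 alternatives. Both were higher in transdifferentiated than in alpha cells (0.75 and 1.14, adjusted p = 0.00296 and 0.00303, limma), in 18 of 18 alternatives. Of the volume-regulated anion channel, a route by which GABA can leave beta cells, Lrrc8d was lower (-1.13, adjusted p = 0.000292) and Lrrc8b higher (1.29, adjusted p = 0.000508) in alpha than in beta cells by limma. Lrrc8a, its obligatory subunit, was at 1.66, 1.18 and 0.884 RPKM in beta, transdifferentiated and alpha cells (adjusted p = 0.0864 for alpha against beta).

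GABA can also be made from putrescine, and 7 of 11 genes of that route and of side steps of breakdown were tested. Aldh9a1, which oxidises the aldehyde precursor of GABA, was at 28.1 ± 1.64 RPKM in beta (SD, n = 3), 23.0 ± 0.0929 in transdifferentiated (SD, n = 2) and 13.7 ± 2.12 in alpha cells (SD, n = 3). It was lower in alpha than in beta cells (-1.07, adjusted p = 0.000367, limma), as were Odc1, the ornithine decarboxylase gene (-1.41, adjusted p = 0.00039), and Sat1, a polyamine acetyltransferase gene (-0.65, adjusted p = 0.00902, lost in 2 of 18 alternatives). These 3 genes were higher in transdifferentiated than in alpha cells by 0.76, 0.85 and 0.61 (adjusted p = 0.00415, 0.00811 and 0.0224, limma), with Sat1 losing its call in 8 and Odc1 in 1 of 18 alternatives. Maob, a monoamine oxidase gene, was the 1 gene of the list lower in transdifferentiated than in beta cells (-0.79, adjusted p = 0.0236, limma), at 44.8 ± 2.59 (SD, n = 2) against 78.0 ± 8.33 RPKM (SD, n = 3), and this call was lost in 7 of 18 alternatives. Against alpha cells Maob and Maoa were lower by limma (-0.50 and -0.51, adjusted p = 0.0458 and 0.0255), calls lost in 10 of 18 and 8 of 17 alternatives. Akr7a5 and Csad did not pass in any contrast between cell groups (adjusted p from 0.0978 to 0.983, limma).

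Genes that supply or use glutamate, the substrate of the decarboxylases, went both ways. Among 13 tested, 4 were higher and 6 lower in alpha than in beta cells, where 16.9% and 26.7% of all genes were. Glul, which encodes glutamine synthetase and turns glutamate into glutamine, was at 182 ± 32.6 RPKM in beta (SD, n = 3), 120 ± 14.2 in transdifferentiated (SD, n = 2) and 67.3 ± 4.74 in alpha cells (SD, n = 3), and was lower in alpha than in beta cells (-1.46, adjusted p = 0.000332, limma). Gpt2, an alanine transaminase gene, was lower in alpha cells too (-2.34, adjusted p = 0.000403, limma). Against beta cells, Slc1a5 (0.81) and Glud1 (0.35) were higher in transdifferentiated cells (adjusted p = 0.0231 and 0.0444, limma), and lost this call in 7 of 17 and 14 of 18 alternatives. Slc1a5 encodes a glutamine transporter and Glud1 glutamate dehydrogenase.

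The citrate cycle list held the part that the GABA shunt passes by (Ogdh, Ogdhl, Dlst, Dld, Sucla2, Suclg1 and Suclg2) and the steps next to it. These steps were Idh3a, Idh3b and Idh3g before it and Sdha, Sdhb, Sdhc and Sdhd after it. Of the 14 genes, 9 fell in alpha against beta cells, where 26.7% of all genes did. They were led by Ogdhl (-1.05, adjusted p = 0.000106), Sdha (-0.61, adjusted p = 0.00129) and Ogdh (-0.56, adjusted p = 0.00808) by limma, the last 2 losing the call in 1 of 18 alternatives each. With quantile normalization 3 were lower and 2 higher. Against beta cells limma called 0 of 14 in transdifferentiated cells, 2 reached an unadjusted p of 0.05, and voom called 0 as well. Median-ratio scaling gave 1 lower, with 9 at an unadjusted p under 0.05 and a median of -0.31 in place of -0.14. Among genes of the cofactor pyridoxal phosphate and of GAD anchoring, Pdxk, the pyridoxal kinase gene, was lower in alpha than in beta cells (-0.85, adjusted p = 0.000593, limma). Hspa8, a chaperone gene, was lower in alpha (-0.73, adjusted p = 0.00614) and in transdifferentiated than in beta cells (-0.75, adjusted p = 0.0268) by limma, losing the second call in 5 of 18 alternatives. Zdhhc17, a palmitoyltransferase gene, was higher in alpha than in beta cells (0.48, adjusted p = 0.0455, limma), a call lost in 6 of 18 alternatives.

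Among GABA receptor genes, both subunits of the metabotropic GABA-B receptor passed the filter. Gabbr2 was at 29.8 ± 4.40 RPKM in beta (SD, n = 3), 18.8 ± 6.15 in transdifferentiated (SD, n = 2) and 2.28 ± 0.713 in alpha cells (SD, n = 3). It was lower in alpha than in beta cells (-3.31, adjusted p = 1.83e-05, limma) and higher in transdifferentiated than in alpha cells (2.71, adjusted p = 0.000153). Its partner Gabbr1 was at 3.13 ± 0.532, 7.54 ± 0.853 and 6.83 ± 1.57 RPKM, higher than in beta cells both in transdifferentiated (1.19, adjusted p = 0.0131) and in alpha cells (1.08, adjusted p = 0.00233) by limma, the first call being lost in 1 of 17 alternatives (adjusted p up to 0.0519).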

How the data were processed

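The authors' deposited table holds RPKM for 46959 entries in 8 libraries, of which 4 with repeated names were left out. Reads were handled with STAR 2.5, featureCounts and edgeR 3.14.0 on build GRCm38.p4, per the submitters' processing notes. The annotation and strand setting were not given in the sources used here. A TruSeq RNA kit, which does not mark strand, was used, per the labels' protocols.

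From these values, whole reads were recovered with exon lengths of GENCODE M21. Of 25349 expressed genes with such a length, 78.5% came out whole in all libraries, within 0.01 of a read, among them Gad1, Gad2, Slc32a1, Slc6a13, Abat and Aldh5a1. Lengths of 6879 further genes were solved from their own steps. The library sizes behind the RPKM were 1.0002 times the summed reads.

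The test was limma 3.58.1 (lmFit, eBayes with trend) in R 4.3.3 on log2(RPKM + 0.5), with cell group and sex as terms, over 13172 genes with at least 1 RPKM in at least 2 of 8 libraries. A gene was called where its p, adjusted by Benjamini-Hochberg over all genes, was under 0.05. Checked on simulated reads, the fit called changed genes and, between transdifferentiated and beta cells, also called unchanged genes of low level more often than its threshold allows. The contrast of transdifferentiated with alpha cells, which uses the same shallow libraries, was not simulated. The genes and lists were chosen with earlier results of these data known. Named were the 6 genes, tested genes of the transporter, alternative source and receptor lists, the 3 with the largest called differences in the other lists, and the 5 most similar profiles. Some listed genes that the rule would name are not reported here, though counts over whole lists include them. Alternatives were another pseudocount, filter, scaling, term, limma voom, fewer groups, and leaving out each library. Of the 6 genes, 5 had a window in the RefSeq promoter table. Whether libraries that share a title number came from separate pools is not stated, so p-values measure the spread between these libraries, which may in part be technical. No pair of a group differed by counting noise alone (chi-square per degree of freedom 3.49 to 35.4).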

Additional observations from a re-analysis of the deposited data

How the results depend on the processing

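Abat kept its call and direction between alpha and beta cells and between transdifferentiated and alpha cells in 18 of 18 alternatives. The number of genes called among Abat and Aldh5a1 rose from 1 to 2 between alpha and beta cells with a filter at a mean of 10 RPKM, without the sex term, with a term for the title letter b and with limma voom, and from 1 to 2 between transdifferentiated and alpha cells with that filter, without the sex term and with the 2 groups compared alone. Leaving out 1 library gave 1 to 2 in both. Of the 48 pathway genes, leaving out 1 library gave 22 to 41 calls between alpha and beta cells (35 with all libraries), 13 to 23 between transdifferentiated and alpha cells (26) and 1 to 7 between transdifferentiated and beta cells (6). The count against alpha cells was 16 with median-ratio scaling and 16 with 2 groups alone. The count against beta cells was 11 with median-ratio scaling, 3 with the filter at a mean of 10 RPKM, 1 with no filter and 0 with 2 groups alone by limma, where 17 reached an unadjusted p of 0.05 and voom over all groups called 4. The cause of these moves was not tested. Pathway genes called with all libraries kept their direction in all alternatives. Some that were not called took either sign.

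The fitted difference of Gad1 between transdifferentiated and beta cells ran from -2.75 to -2.26 over 17 alternatives, that between alpha and beta cells from -5.62 to -3.44 and that between transdifferentiated and alpha cells from 1.18 to 2.87. Depth limits Gad2, Slc32a1 and Slc6a13 in transdifferentiated cells, where a count of 0 allows up to 0.862 RPKM. No paired analysis was possible because the titles give no replicate number that groups share. With the title letter as a term beside sex, Aldh5a1 was called between alpha and beta cells (-0.68, adjusted p = 0.00975, limma).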
